A study of Homo sapiens with 4 samples.

Results

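A set of 10 immediate early and AP-1 transcription factor genes were followed in MIB1-iKO cells with and without doxycycline (dox). The members, of 58302 genes listed in the deposited tables, were FOS, FOSB, FOSL1, FOSL2, JUN, JUNB, JUND, EGR1, IER2 and MYC. These members were chosen by name with earlier results of these data known, as were the gene lists below. All 10 were found by their Ensembl identifiers, and 9 had enough reads to be tested. NCI-H838 is an established line of human non-small-cell lung cancer, and MIB1-iKO cells are a derivative that carries a MIB1 guide RNA together with a Cas9 gene switched on by dox. MIB1 encodes an E3 ubiquitin ligase of the Notch pathway. RNA-seq compared 2 libraries from cells without dox with 2 from cells given 0.5 μg/mL dox, all at day 3. Both groups carry the same integrated construct. The study derived its MIB1-iKO cells as single-cell clones, and the labels give neither the clone nor the guide used here. The study's methods keep the line in medium with serum. No library from dox-treated cells without the MIB1 guide was compared, so loss of MIB1, Cas9 cutting and dox itself cannot be told apart. For RNA-seq of MIB1-iKO cells after 3 days of dox, the study names 2 biological replicates per condition. The labels do not say whether the replicates came from separate cultures, so p-values measure only the spread between these samples.

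Immediate early genes are transcribed within minutes of a stimulus such as serum or a growth factor, without the need for new protein, and their transcripts are short-lived. Signals through MAP kinases act on factors already present in the nucleus, among them serum response factor (SRF) and its ETS partners. The FOS proteins pair with the JUN proteins through leucine zippers to form AP-1, which binds TGANTCA. FOS proteins do not bind DNA as pairs with each other, whereas JUN proteins can. JUNB and JUND can act in opposition to JUN in growth control. In lung epithelium and its cancers, AP-1 and MYC act downstream of RAS and receptor kinase signaling.

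The library totals ran from 15943025 to 24398411 reads, lower in both dox libraries. MIB1, examined as a check of the labels, fell from 598 and 588 reads to 90 and 59 with dox, and by 2.58 on the log2 scale (SE 0.23, adjusted p = 0.000375 in limma). Of 6 epithelial markers, 5 had reads, with a summed level between 103 and 125 RPKM in each library, and KRT19 was listed at 0 in all. The lung markers NKX2-1 and SFTPB were also listed at 0, and NAPSA and SFTPC had at most 8 reads. Lists of 4 endothelial, 4 leukocyte and 5 fibroblast markers summed to between 0.0536 and 0.847 RPKM in a library. KDR, PTPRC, CD68 and COL1A2 were listed at 0. For these genes and the lung and epithelial markers at 0, absence of the transcript and a gene model that took no reads cannot be told apart, so the zeros say nothing of the cell types. Of these lists, COL1A1 alone reached a mean count of 50, with 89, 82, 22 and 83 reads in no dox replicates 1 and 2 and dox replicates 1 and 2.

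The start regions of the members were searched for short motifs, among them elements that early induction is known to use. RefSeq start regions (GRCh38.p14, 250 bases before to 50 after the start) were searched for 8 members. FOSL1 and MYC were left out of this search. The 110 bases just before the start are printed for 6 of them, 5′ to 3′ on the strand of the gene, with the TATA box motif TATAAA in capitals, as are the CCAAT motif and the CArG box, the site of SRF.
FOS: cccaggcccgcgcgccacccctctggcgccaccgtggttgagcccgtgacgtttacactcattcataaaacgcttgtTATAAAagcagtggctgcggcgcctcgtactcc
FOSB: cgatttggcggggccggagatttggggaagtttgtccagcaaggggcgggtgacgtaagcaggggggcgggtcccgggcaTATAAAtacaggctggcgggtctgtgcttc
JUNB: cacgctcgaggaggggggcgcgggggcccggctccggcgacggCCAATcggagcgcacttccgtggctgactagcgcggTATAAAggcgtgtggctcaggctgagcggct
JUN: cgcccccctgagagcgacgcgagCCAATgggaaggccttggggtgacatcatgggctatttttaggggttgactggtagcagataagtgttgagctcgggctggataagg
JUND: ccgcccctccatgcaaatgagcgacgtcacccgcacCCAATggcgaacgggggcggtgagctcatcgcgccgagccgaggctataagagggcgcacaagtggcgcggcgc
EGR1: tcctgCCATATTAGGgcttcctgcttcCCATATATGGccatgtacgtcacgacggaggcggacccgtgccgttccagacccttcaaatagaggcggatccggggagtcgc
They lie at chr14:75278718-75278827 (plus strand) for FOS, chr19:45467886-45467995 (plus strand) for FOSB, chr19:12791376-12791485 (plus strand) for JUNB, chr1:58784048-58784157 (minus strand) for JUN, chr19:18281623-18281732 (minus strand) for JUND and chr5:138465369-138465478 (plus strand) for EGR1.

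TATAAA lay between -33 and -25 from the start in FOS, FOSB and JUNB. It was found in 3 of the 8 regions and in 11.5% of 35116 start regions of the same length, both strands searched. CCAAT lay between -87 and -63 in all 3 JUN genes, and in 34.6% of all regions. EGR1, the zinc-finger factor, was the only one of the 8 with a CArG box, and held 2 (from -105 and from -83), against 1.29% of all regions with at least 1. TGACGTCA, the site of CREB and ATF factors, was matched in JUND alone, at -200 to -193, and in 1.85% of all regions. TGANTCA was matched in FOSL2 alone, at 4 to 10 past the start, and in 7.71% of all. GCGTGGGCG, CCGGAAGT and CACGTG were matched in none of the 8. No match overlapped one of another motif. A match here describes letters and no more, and the windows leave out elements that lie further away. The 8 regions held between 62.0% and 77.0% G and C, where the median of all regions was 58.7%.

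Many early transcripts carry AU-rich elements in the 3′ UTR, which shorten their life. The pentamer ATTTA occurred at least once in the 3′ UTR of 9 of the 10 members, IER2 being without it, and in 67.5% of 19550 protein-coding genes. FOS had 5 in 806 bases and JUNB had 2 in 500 bases, the highest densities of the 10. The median gene had 2 and the median 3′ UTR was 1064 bases long. Over the 10 members the medians were 2.5 and 1137.5 bases, so as a set they lay close to all genes. The longer form TTATTTATT was present in FOS and FOSL2 and in 8.44% of all genes. Windows of 30 bases around it, at chr14:75282060-75282089 and chr2:28416355-28416384 (GRCh38, plus strand, GENCODE transcripts), are shown with each ATTTA in capitals.
FOS: tgtttttaATTTATTTAttaagatggattc
FOSL2: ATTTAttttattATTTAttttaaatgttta
The gene structures differ between the families. JUN, JUNB and JUND each have a single exon in the GENCODE canonical transcript, whereas the 4 FOS genes have 4 exons each.

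JUNB was the most abundant member in every library. In RPKM, which scales reads by gene length and can be compared between genes, JUNB stood at 91.4 and 102 in no dox replicates 1 and 2 and at 121 and 135 in dox replicates 1 and 2. JUND came next, at 23.4 and 23.2 RPKM without dox and 21.2 and 20.5 RPKM with dox. Means over the 4 libraries were 112 RPKM for JUNB, 22.1 for JUND, 5.81 for IER2, 5.48 for FOS, 4.21 for MYC, 3.63 for FOSL2, 1.97 for FOSL1, 0.886 for JUN, 0.142 for FOSB and 0.0868 for EGR1. The ranges over libraries overlapped for IER2 and FOS, for FOS and MYC, for MYC and FOSL2, and for FOSB and EGR1, so the order of those neighbours is not fixed. The other neighbours in this order did not overlap.

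**Figure D1:**
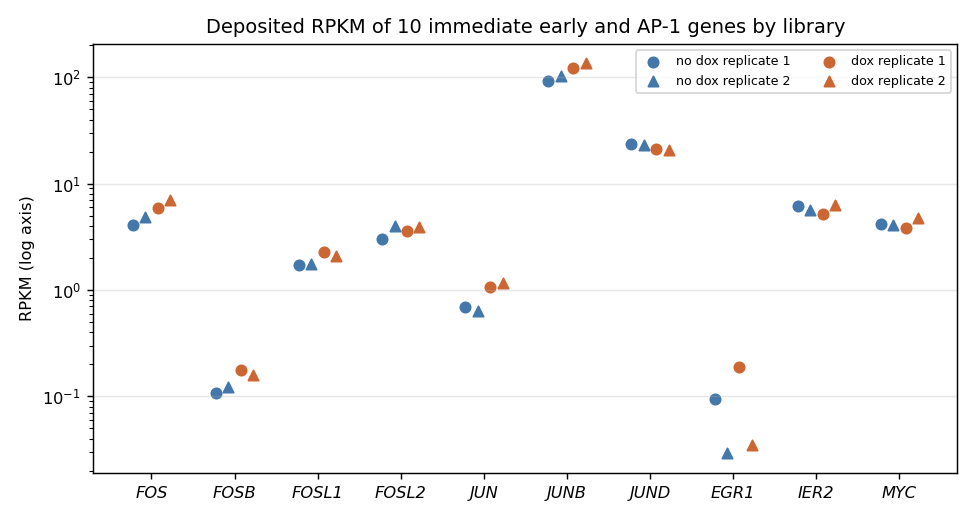
Deposited RPKM (log axis) of each of the 10 genes in each of the 4 libraries; circles are replicate 1 and triangles replicate 2. JUNB lies above 90 RPKM in every library and EGR1 and FOSB below 0.2.

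Transcripts of the JUN family were therefore mostly JUNB. Its share of the summed JUN, JUNB and JUND RPKM was 79.1% and 81.0% without dox and 84.5% and 86.1% with dox. JUND made up 20.3% and 18.5% without dox and 14.8% and 13.1% with dox, and JUN never more than 0.748%. The dox libraries lay above both no dox libraries for the JUNB share and below them for the JUND share. In the FOS family, FOS held 45.9% and 45.0% without dox and 49.5% and 53.3% with dox. FOSL2 held between 29.7% and 37.4%, FOSL1 between 15.8% and 19.4% and FOSB at most 1.48%. The summed JUN family level was 12.9, 11.8, 12.0 and 11.8 times the summed FOS family level in the 4 libraries, with no separation of the groups. These are transcript shares, and no protein was measured here.

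**Figure D2:**
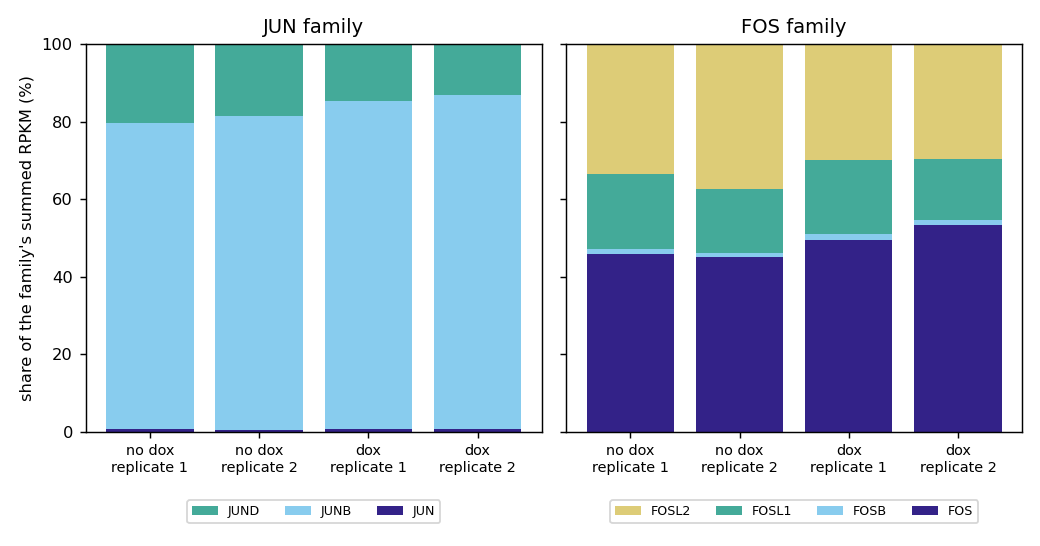
Share of each gene in the summed RPKM (%) of the JUN family (left) and the FOS family (right), 1 bar per library. JUNB takes 79.1% to 86.1% of the JUN family.

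Dox-treated and untreated cells were compared to ask whether these factors change when MIB1 is disrupted. None of the 9 members tested was called in limma by the criteria of the study's methods, a 2-fold change with adjusted p no higher than 0.05. In bulk RNA, fewer cells that express a gene and less RNA per cell cannot be told apart. Of all 16181 genes tested, 0.0371% were called. At an unadjusted p under 0.05, 3 of the 9 were higher with dox and 0 lower, and these were FOS, JUN and JUNB. The same p was reached by 4.68% of all genes tested in the higher and 4.59% in the lower direction. The edgeR quasi-likelihood test and DESeq2 also called 0 of the 9 and had 3 at an unadjusted p under 0.05. DESeq2 gave no adjusted p for FOSB, FOSL1 and JUN, so it could not call them. In deposited RPKM both dox libraries lay above both no dox libraries for 5 of the 10 members (FOS, FOSB, FOSL1, JUN and JUNB) and below them for 1 (JUND), where 18.1% and 20.5% of all genes tested did so. The median log2 fold change of the 9 was 0.30, against 0.00 over all genes (-0.000418 unrounded). With 2 libraries against 2, an exact two-sided permutation test of a single gene cannot reach a p below 0.333.

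**Figure D3:**
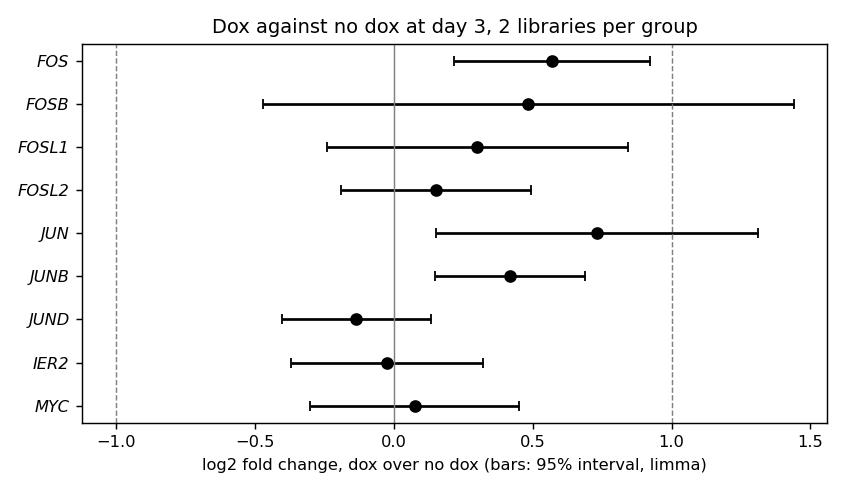
log2 fold change of dox over no dox for the 9 genes tested (points), with 95% intervals from limma (bars) and dashed lines at a 2-fold change. The intervals of FOS, JUN and JUNB lie above 0, and none of the 9 reached an adjusted p of 0.05.

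FOS, whose protein is the prototype partner of JUN in AP-1, had 4.10 and 4.81 RPKM without dox and 5.94 and 7.08 RPKM with dox. Its reads numbered 283, 309, 266 and 377 in the order no dox replicates 1 and 2 and dox replicates 1 and 2, which is kept below. Both dox libraries lay above both no dox libraries. The gene lies at chr14:75278826-75282230 (GRCh38, plus strand) and no other annotated gene overlaps it. Group means were 4.45 ± 0.499 and 6.51 ± 0.805 RPKM (SD, n = 2 in each), with a ratio of 1.46 between them. For the log2 fold change the fit gave 0.57 ± 0.17 (SE) with a 95% interval from 0.22 to 0.92, and the adjusted p was 0.305 (limma).

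FOSB, a close relative of FOS, was near the limit of measurement, with 14, 15, 15 and 16 reads. Its RPKM values were 0.107, 0.123, 0.177 and 0.159, so that the groups did not overlap. FOSB (chr19:45467995-45475179, plus strand) lies wholly within ERCC1 on the opposite strand, which had between 1036 and 1704 reads, and no strand setting is given for the counts. The log2 fold change of 0.48 had a 95% interval from -0.47 to 1.44 (adjusted p = 0.786 in limma).

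FOSL1 encodes FRA1, an AP-1 subunit known from invasive and RAS-driven tumor cells. The gene lies at chr11:65892049-65900573 on the minus strand (GRCh38). It had 75, 71, 64 and 70 reads and 1.73, 1.76, 2.28 and 2.10 RPKM. Both dox libraries were the higher ones. The log2 fold change was 0.30 with a 95% interval from -0.24 to 0.84 (adjusted p = 0.761 in limma). FOSL2, at chr2:28392448-28417317 on the plus strand, encodes FRA2 and had 2.99 and 3.99 RPKM without dox and 3.60 and 3.95 RPKM with dox. In RPKM the groups overlapped fully, since the no dox libraries held both the lowest and the highest value. In reads per library total they also overlapped, but dox replicate 2 held the highest value. Its log2 fold change was 0.15 (95% interval -0.19 to 0.49, adjusted p = 0.822 in limma), and without no dox replicate 1 it was -0.053.

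JUN, the first AP-1 subunit described and a target of the JNK kinases, was the least abundant of its family. Its reads numbered 57, 49, 58 and 74, the last pair from smaller libraries. In RPKM these were 0.685 and 0.632 without dox and 1.07 and 1.15 with dox. The groups did not overlap, and the dox libraries lay close together. The ratio of group means, 1.69, was the highest of the 9 members tested. The log2 fold change was 0.73 ± 0.27 (SE; 95% interval 0.15 to 1.31, adjusted p = 0.411 in limma). JUN lies at chr1:58776845-58784048 on the minus strand (GRCh38), with no overlapping gene.

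JUNB had the largest difference in RPKM, and it also missed the threshold. Its reads numbered 3909, 4061, 3367 and 4440. Group means were 96.7 ± 7.45 and 128 ± 9.34 RPKM (SD, n = 2 per group), with a ratio of 1.32 between them. On the log2 scale this was 0.42 ± 0.13 (SE; 95% interval 0.15 to 0.69, adjusted p = 0.309 in limma). Both dox libraries lay above both no dox libraries. In CPM, which scales reads by the library total alone, the values were 160.2 and 191 without dox and 211 and 260.4 with dox, so that the gap between the groups was smaller than that between replicates, whereas in RPKM it was larger. JUNB lies at chr19:12791486-12793315 on the plus strand (GRCh38), within the span of HOOK2 on the opposite strand, which had between 108 and 151 reads.

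JUND, a JUN family gene known for steady expression, was the one member whose dox libraries both lay below the no dox libraries. Its reads numbered 1026, 947, 602 and 692. Group means were 23.3 ± 0.152 and 20.8 ± 0.501 RPKM (SD, n = 2 in each), with a ratio of 0.894 between them. On the log2 scale this was -0.13 with a 95% interval from -0.40 to 0.13 (adjusted p = 0.789 in limma). JUND, at chr19:18279694-18281622 on the minus strand (GRCh38), overlaps no other annotated gene.

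EGR1, which encodes a zinc-finger factor induced through SRF, was almost silent. It lies at chr5:138465479-138469303 on the plus strand (GRCh38). Its reads numbered 7, 2, 9 and 2, and it was not tested because of these low counts. In a library of this depth 3 reads correspond to between 0.123 and 0.188 CPM, so 2 of the 4 libraries were under that limit. Its relatives EGR2, EGR3 and EGR4 had at most 5 reads in a library. IER2, an early gene for a nuclear protein at chr19:13150411-13154911 on the plus strand, had 6.19 and 5.61 RPKM without dox and 5.17 and 6.29 RPKM with dox. The dox libraries held both its lowest and its highest value, and its log2 fold change was -0.024 (95% interval -0.37 to 0.32, adjusted p = 0.980 in limma). MYC, which binds E-boxes together with MAX, had 4.18 and 4.08 RPKM without dox and 3.83 and 4.74 RPKM with dox. Its groups overlapped in the same way, and its log2 fold change was 0.075 (95% interval -0.30 to 0.45, adjusted p = 0.933 in limma). For IER2 and MYC the intervals leave room for a change of up to 1.25-fold and 1.37-fold upward and down to 0.773-fold and 0.811-fold. The sign of both turned when 1 library was left out: IER2 stood at 0.065 when no dox replicate 1 was left out and at 0.11 when dox replicate 1 was, and MYC stood at -0.082 when dox replicate 2 was.

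The spread between replicates of a group was then set beside these differences. Ratios of reads per library total, replicate 2 over replicate 1, were taken with exact 95% binomial intervals. These treat each read as independent and leave out all error but that of counting. PCR copies are not independent molecules, so the intervals can be too narrow. Without dox the interval lay above 1 for 3 of the 10 members, FOS (1.26, 1.07 to 1.48), FOSL2 (1.43, 1.27 to 1.62) and JUNB (1.20, 1.14 to 1.25). With dox it lay above 1 for 5, FOS (1.33, 1.13 to 1.56), FOSL2 (1.22, 1.06 to 1.40), JUNB (1.23, 1.18 to 1.29), IER2 (1.35, 1.14 to 1.60) and MYC (1.38, 1.13 to 1.68). It lay below 1 for 0 members in either group. Of all genes tested, 28.0% without dox and 30.0% with dox had an interval above 1, and 12.6% and 11.5% had one below 1, so a shift of this kind is common at this scaling. In the deposited RPKM replicate 2 was scaled down against its total by a factor of 1.07 without dox. Dox replicate 2 carried 1.10 and dox replicate 1 carried 0.993, relative to no dox replicate 1.

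**Figure D4:**
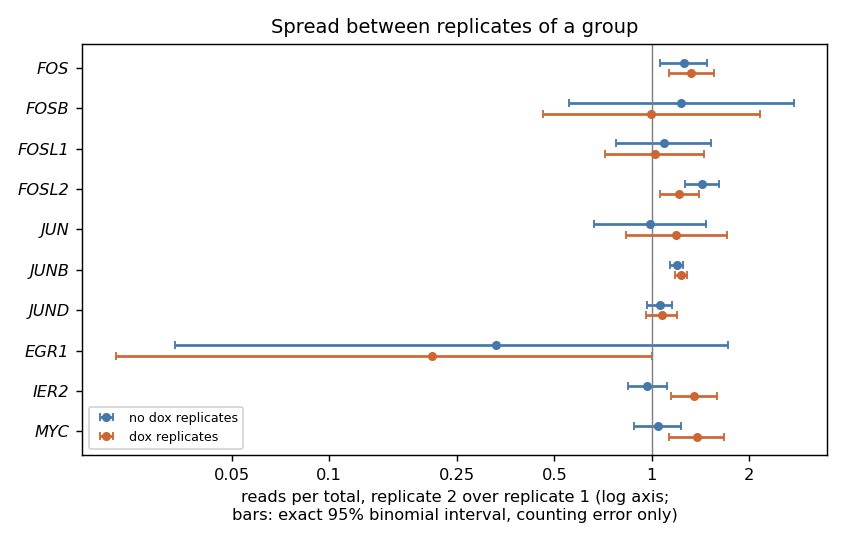
Ratio of reads per library total between replicate 2 and replicate 1 (log axis) in each group, with exact 95% binomial intervals for counting error (bars). With dox FOS, FOSL2, JUNB, IER2 and MYC lie above 1 with their whole interval.

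On quantile-normalized log2 CPM, the scale of the test, the replicates differed by 0.19 and 0.24 for FOS (no dox, then dox), by 0.24 and 0.30 for JUNB and by 0.40 and 0.13 for FOSL2. For IER2 the differences were -0.17 and 0.28, and for MYC -0.082 and 0.31, replicate 2 minus replicate 1. JUND differed least, by -0.0078 and -0.031. The mean of the absolute differences in both groups had a median of 0.20 over the 9 members and of 0.21 over all genes. At a mean count of 50 or more, it was 0.20 for 8 members and 0.18 for 12344 genes. The members' replicates thus differed about as much as those of other genes. JUNB and FOSL2 had the largest values, 0.27 each.

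The genes most like those 2 members in their pattern over the 4 libraries were found by the root mean square difference of centred log2 CPM. For JUNB they were STYK1 (0.020), SFSWAP (0.023), BCAS3 (0.027), INTS6-AS1 (0.031) and SEC24D (0.035), where the median gene stood at 0.28. For FOSL2 they were TAF1A (0.0066), CDKN1A (0.0092), FOXL1 (0.011), USP9X (0.011) and ENSG00000236942 (0.014), where the median gene stood at 0.21. Over 4 libraries many genes come close to any profile.

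Other immediate early genes were compared as a list of 48, of which 42 were tested. The result for 1 gene, TIPARP, passed an adjusted p of 0.05 without reaching 2-fold, where 0.0680% of all genes passed it at any fold, and 0 were called at 2-fold. At an unadjusted p under 0.05, 11 were higher and 2 lower, where 4.68% and 4.59% of all genes tested were. The median log2 fold change of the list was 0.17. Of the 42, 30 lay above 0, against 8080 of all 16181 genes tested. CCN2, a secreted matrix protein gene of the YAP and TGF-β responses, stood at 18.2 ± 2.19 RPKM in no dox and 30.4 ± 6.11 RPKM in dox cells (SD, n = 2 per group). Its log2 fold change was 0.76 (adjusted p = 0.146 in limma). TIPARP, a mono-ADP-ribosyltransferase gene, had 922, 820, 990 and 1218 reads and a log2 fold change of 0.82 (adjusted p = 0.0243 in limma). Among those lower with dox, RHOB, a small GTPase gene, had a log2 fold change of -0.45 (adjusted p = 0.305 in limma), and IER5L had -0.58 (adjusted p = 0.522 in limma). Dox replicate 2 was above dox replicate 1 for 33 of the 42, against 50.7% of all genes, and no dox replicate 2 was above no dox replicate 1 for 28, against 48.4%. The median of the list was 0.086 without dox replicate 2 and 0.25 without dox replicate 1, where 27 and 31 genes were above 0. Whether the height of dox replicate 2 contributed to the list's direction was not tested beyond these values.

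**Figure D5:**
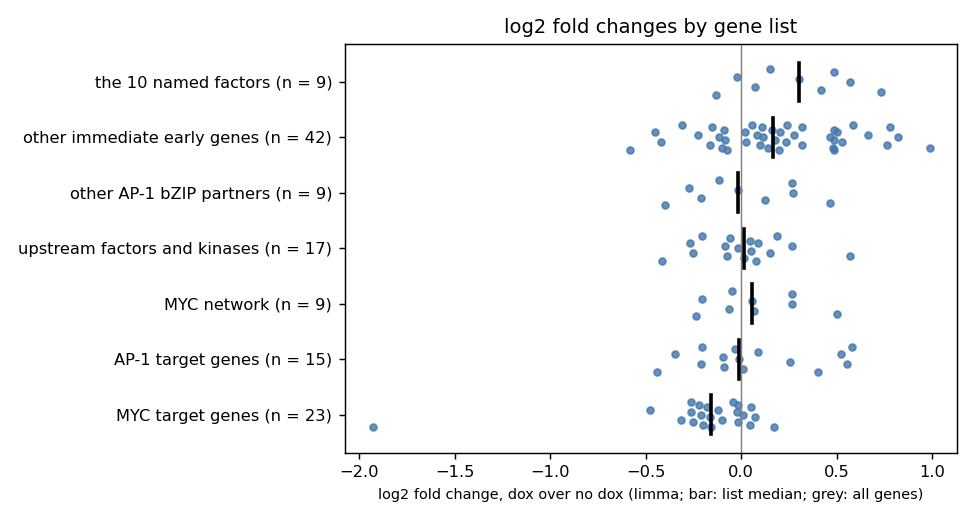
log2 fold change of dox over no dox for the genes tested in each list (points), the list median (black bar) and the median of all genes (grey line). Medians run from -0.16 for MYC target genes to 0.30 for the 9 members tested (top line).

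Among 13 other bZIP factors that can pair within AP-1, 9 were tested, 4 were higher and 5 lower, and 0 were called; their median of -0.016 turned above 0 in 3 of the 4 fits that leave out a library, to 0.0029 (no dox replicate 1), 0.0085 (dox replicate 1) and 0.085 (dox replicate 2). MAFF (0.46) and MAFG (0.26) had the lowest unadjusted p of those higher, and JDP2 (-0.21) and BATF3 (-0.27) of those lower, as log2 fold changes, none with an adjusted p below 0.555 in limma. All 17 factors and kinases upstream of early genes were tested and 0 were called, with 9 higher and a median of 0.017 (-0.011 without dox replicate 2). SRF itself had 196, 136, 92 and 155 reads and a log2 fold change of -0.015 (adjusted p = 0.992 in limma), and was taken after its values were seen. MRTFB, an SRF coactivator, had 0.57 and RPS6KA5, the kinase MSK1, had 0.27. MAPK7, the kinase ERK5, had -0.41. Of these the lowest adjusted p was 0.367 (limma, MRTFB).

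Targets of AP-1 did not share a direction. Of 21 listed, 15 were tested, 7 were higher, 8 lower and 0 called, and the median of -0.0097 changed sign with the library left out (it was 0.073 leaving out no dox replicate 2 and 0.033 leaving out dox replicate 1, and below 0 in the other fits of that kind). CXCL8, a neutrophil chemokine gene, had 706, 513, 627 and 671 reads and a log2 fold change of 0.58 (adjusted p = 0.228 in limma), and the interleukin gene IL11 had 0.55 (adjusted p = 0.453). HMOX1, which encodes heme oxygenase, had -0.44 (adjusted p = 0.530 in limma) and PLAU, which encodes urokinase, had -0.20 (adjusted p = 0.635). MMP3, MMP9, MMP10, MMP13, SPRR1B and IVL were not tested, with no more than 7 reads in any library.

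In the MYC network, 9 of 12 genes were tested and 0 were called, with 5 higher and a median of 0.058 (-0.0055 in the fit leaving out no dox replicate 1, -0.016 leaving out dox replicate 1). MXI1, an antagonist of MYC that also pairs with MAX, stood at 9.81 ± 0.0224 RPKM in no dox and 13.5 ± 1.60 RPKM in dox cells (SD, n = 2 per group), a log2 fold change of 0.50 (adjusted p = 0.246 in limma). MAX had -0.24, MLX 0.26 and MLXIP -0.20, none with an adjusted p below 0.504 in limma. Of 24 MYC target genes, 23 were tested, 0 were called, and the median log2 fold change was -0.16. Of the 23, 18 lay below 0 and 5 above, against 8101 and 8080 of all 16181 genes tested. At an unadjusted p under 0.05, 6 were lower and 0 higher, where 4.59% and 4.68% of all genes tested were. NOP56, a nucleolar protein gene, stood at 57.8 ± 0.314 RPKM in no dox and 45.7 ± 0.691 RPKM in dox cells (SD, n = 2 per group; log2 fold change -0.31, adjusted p = 0.389 in limma). RRS1, a ribosome assembly gene, had -0.48 (adjusted p = 0.466 in limma), while MYBBP1A had 0.17 and RRP12 had 0.074. The median lay between -0.18 and -0.098 with a library left out. TERT, named after its values were seen, had the lowest value, -1.93, on 15, 18, 2 and 4 reads (adjusted p = 0.321 in limma).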

How the data were processed

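RNA-seq of 4 samples was analysed, 2 without dox and 2 with dox, grouped by their titles. The authors removed ribosomal reads, aligned with GSNAP to GRCh38 and used HTSeqGenie to count reads over exons. Read counts were deposited as whole numbers without normalization. The methods name RefSeq gene models, but the identifiers are Ensembl ones, and the strand setting and which of 2 library kits was used are not given in the sources used here. The authors also deposited RPKM, with a further scaling per sample.

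Symbols came from GENCODE release 44 (57532 of 58302 identifiers matched). Genes passing filterByExpr (16181) were fitted without covariates (R 4.3.3, limma 3.58.1: voom with quantile normalization, lmFit, eBayes), and p-values were adjusted by Benjamini-Hochberg over all genes tested; this test follows the study's methods. Calls needed a 2-fold change with adjusted p no higher than 0.05. RPKM served for levels. Libraries with 0 reads for a gene could hold up to 3 reads' worth. The fit was run on simulated counts with set fold changes and a fixed spread, as a check of its estimates. That run did not measure error rates at the replicate spread of these data. Alternatives were edgeR 4.0.16, DESeq2 1.42.0, other normalizations, filters, pseudocounts and samples.

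The members and lists were chosen with earlier results of these data known. The 10 members and MIB1 were always named; from each list, the 2 genes higher and the 2 lower with the lowest unadjusted p and a mean count of at least 50 were named, and others are marked; 1 gene that this rule names is not reported here. Likeness used the 2 members with the largest replicate difference.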

Additional observations from a re-analysis of the deposited data

How the results depend on the processing

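Of the members, 0 were called in each alternative that gave a test, with limma, edgeR or DESeq2, and 3 had an unadjusted p under 0.05 in every one. The count of called genes over the whole table was 2 with DESeq2, which gave no adjusted p for 3 of the 6 genes called by limma and for 3 of the 9 members. It was 0 without a count filter (2092 genes at an unadjusted p under 0.05), 0 on log2(RPKM + 0.1) (1442) and 0 on log2(RPKM + 1) (1438), and 11 with no fold minimum; the cause was not tested. The members' median log2 fold change was 0.096 on log2(RPKM + 1), a scale that understates the change of low genes, and ranged from 0.26 to 0.34 over the fits that leave out 1 library. Signs turned for FOSL2 (-0.053) and IER2 (0.065) in the fit without no dox replicate 1, for IER2 (0.11) without dox replicate 1 and for MYC (-0.082) without dox replicate 2. These fits gave fold changes and no test. FOS ranged from 0.45 to 0.69, JUN from 0.66 to 0.80, JUNB from 0.28 to 0.56, FOSL2 from -0.053 to 0.34, IER2 from -0.17 to 0.11 and MYC from -0.082 to 0.22 in these fits. Their adjusted p-values ranged from 0.00384 to 0.613 for FOS, from 0.0940 to 0.613 for JUN and from 1.29e-06 to 0.613 for JUNB over the alternatives with a test. The median replicate difference of the members lay between 0.15 and 0.24 on the other scales. EGR1 and FOSB are limited by depth.

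With the replicate number as a block, 78 genes were called, 41 higher and 37 lower, on 1 residual degree of freedom. What a number stands for is not in the labels, so pairing is not established; same-numbered deviations correlated at 0.13 across genes. In that fit no member was called, while the adjusted p was 1.29e-06 for JUNB, 0.00384 for FOS and 0.0940 for JUN. Low values were common there: with no fold minimum, 1154 of 16181 genes passed the adjusted p threshold, against 11 in the main fit. Of the 9 members tested, 2 were among them, JUNB and FOS.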
